A study of Mus musculus with 6 samples.

Results

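The genes described here encode 10 secreted proteins, matricellular proteins and their matrix partner fibronectin: Postn, Tnc, Thbs1, Thbs2, Thbs4, Sparc, Sparcl1, Spp1, Fn1 and Smoc2. They were chosen by name, out of 23462 named genes on the array, and every probe whose RefSeq accession belongs to one of them was taken, 18 probes in all. Expression was measured in 6 colon samples from male mice, 3 labelled as controls and 3 as Islr knockouts, with 1 single-colour Agilent array each. By the sample source, all 6 came from animals that drank 3.5% DSS (dextran sulfate sodium, which damages the lining of the colon) for 5 days and then recovered for 1 day, although another field of the labels says that nothing was given. Strain, age, the design of the Islr allele and the cells in which it was deleted are not stated in the labels used here, and no group without DSS was analysed here. The design text mentions separation by flow but names no population. Nothing states that samples of a group came from separate animals, so p-values measure the spread between these samples, which may be technical.

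Matricellular proteins are secreted into the extracellular matrix but mostly do not build it. They bind integrins, growth factors and collagen fibres, and so adjust how cells attach, migrate and read signals such as TGF-beta. Most are scarce in resting adult tissue and are made in quantity at sites of injury by fibroblasts, smooth muscle, endothelium and macrophages, which is why they serve as labels of healing stroma, in the gut as elsewhere. Fibronectin, a true structural glycoprotein, forms the early scaffold to which several of them attach. Islr itself codes for a secreted protein with leucine-rich repeats and an immunoglobulin-like domain, made by stromal cells.

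Levels are given as log2 signal with 0 set at the 75th percentile of the array, so they compare a probe with itself between arrays and not 1 gene with another. Differences are knockout minus control on that log2 scale, tested with limma, and a gene is called when its p adjusted by Benjamini-Hochberg over all tested probes is under 0.05. Islr, examined as a check of the labels, read 1.57, 1.24 and 1.21 in control replicates 1 to 3 and -1.40, -0.93 and -1.31 in the knockouts, which is lower in each knockout than in any control. Its difference was -2.44 (SE 0.21, limma adjusted p 0.0171), with the spot of control replicate 1 left out as an outlier. Of 72 marker probes for 10 cell and tissue types, 66 were well above background on all 6 arrays, and no list lacked signal as a whole. All control arrays occupied 1 row of the slide and all knockout arrays the other, so row and genotype cannot be told apart. The scanner software marked many bright spots as uneven, and such spots were treated as missing: 84 of 108 member values were usable, with 8 of 18 lost on control replicate 1 and 8 of 18 on knockout replicate 1.

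Promoter sequences in RefSeq's GRCm38.p6 annotation were found for 6 of the 10 genes. A pair of them is shown because they belong to the only gene of the set that was called and to the gene with the largest difference in the other direction. Each runs 5′ to 3′ along the gene from 250 bases before to 50 bases after the start site. The Spp1 window lies on the plus strand at chr5:104434861-104435160, and Thbs4 on the minus strand at chr13:92794769-92795068.
Spp1: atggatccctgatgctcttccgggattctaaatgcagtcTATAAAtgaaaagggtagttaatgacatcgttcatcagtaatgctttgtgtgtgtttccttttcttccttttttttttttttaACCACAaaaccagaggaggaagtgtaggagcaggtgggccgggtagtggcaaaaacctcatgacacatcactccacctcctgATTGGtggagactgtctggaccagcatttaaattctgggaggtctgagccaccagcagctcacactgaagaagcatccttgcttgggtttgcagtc
Thbs4: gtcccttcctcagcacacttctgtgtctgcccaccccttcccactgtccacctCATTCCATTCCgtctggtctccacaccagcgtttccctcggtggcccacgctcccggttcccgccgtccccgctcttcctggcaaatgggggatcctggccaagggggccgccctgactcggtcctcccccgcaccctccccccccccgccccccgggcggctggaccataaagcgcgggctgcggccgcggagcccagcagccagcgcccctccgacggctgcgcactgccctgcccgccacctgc
RefSeq gives Spp1 another start site downstream, whose window at chr5:104435942-104436241 held 0 matches and is not shown. Capitals mark matches, searched on both strands, to 5 short motifs. These were TATAAA for the TATA box, GGAATG as bound by TEAD factors, TGTGGT as bound by RUNX factors, TGANTCA as bound by AP-1, and the CCAAT box. In the Spp1 window they are a TATA box match at -211 to -206, a RUNX match read on the opposite strand at -128 to -123 and a CCAAT match on the opposite strand at -46 to -42, counted from the start site. In the Thbs4 window they are TEAD matches on the opposite strand at -197 to -192 and -192 to -187, which share 1 base. These motifs are common: among 32851 promoters of the same length, 13.6% held TATAAA, 14.7% GGAATG, 16.8% TGTGGT, 7.81% TGANTCA and 37.4% CCAAT. Such matches describe the letters only.

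Spp1 was the single called gene of the set, and it was lower in the knockouts. Of the 10 genes 9 could be tested, and 1 of these 9 passed, where 3.82% of all 16451 tested genes passed in either direction and 2.47% passed as lower. Most of the tested genes read lower. Their difference was below 0 for 8 of 9, against 48.8% of all tested genes, and below -0.5 for 4 of 9, against 17.9%. Their median difference was -0.47, whereas that of all tested genes was 0.01. An unadjusted p under 0.05 with a lower level was reached by 3 of 9, Spp1, Thbs1 and Smoc2, against 14.5% of all tested genes. Each count rests on 9 genes, chosen with earlier results of these data known, and only describes them.

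**Figure D1:**
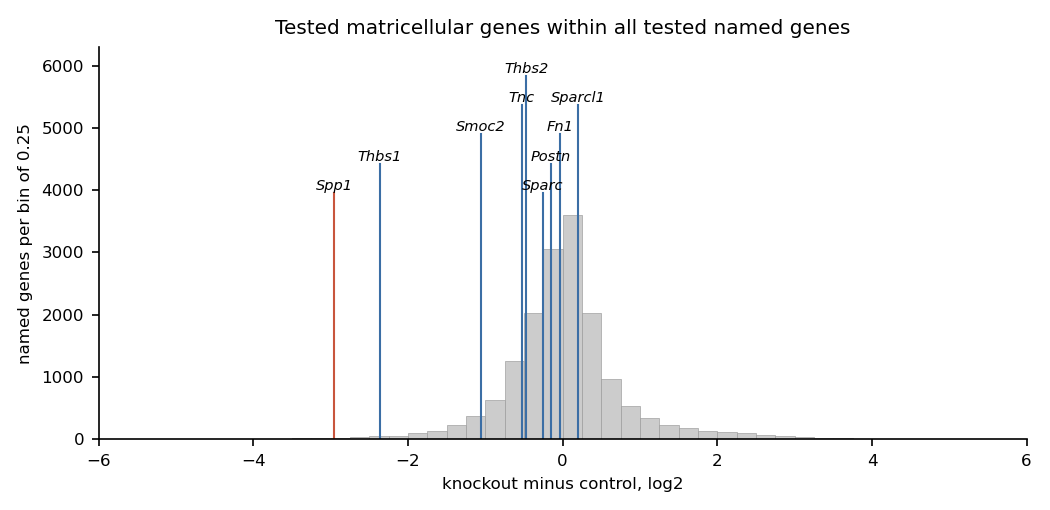
Histogram of the knockout minus control difference (log2, x axis) over 16451 tested named genes, in bins of 0.25 (y axis, genes per bin); vertical lines mark the 9 tested matricellular genes, with Spp1, the called one, in red. Their heights only separate the labels. The lines run from -2.96 for Spp1 to 0.20 for Sparcl1, and 8 of 9 lie left of 0.

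Spp1 encodes osteopontin, a phosphorylated glycoprotein that binds integrins and CD44 and acts as a cytokine. Its probe (A_51_P358765) was well above background and usable on every array. The level was 0.57, -0.05 and -0.72 in control replicates 1, 2 and 3. In knockout replicates 1, 2 and 3 it was -3.87, -2.58 and -2.61. The groups were wide apart, with the brightest knockout below the dimmest control. In unscaled intensity units the controls read 9416, 6892 and 3976 and the knockouts 336, 971 and 945. On average Spp1 fell by 2.96 on the log2 scale, a 7.76-fold lower signal (SE 0.46, 95% interval -4.05 to -1.87, limma adjusted p 0.0331). The size was similar with any 1 array left out, from -3.28 to -2.53. Its adjusted p was 0.0412 when control replicate 1 was dropped and 0.0410 when knockout replicate 2 was dropped, so the call was kept. It was lost on dropping control replicate 2 (0.0914) or 3 (0.0654), or knockout replicate 1 (0.0588) or 3 (0.0776), and also with no filter on dim probes (0.0515).

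Macrophages are a known source of osteopontin. The macrophage markers were lower in all 7 that were tested, with a median difference of -0.88 and none called. Averaged over all 8 listed markers, the level was 0.62 to 1.47 on control arrays and -0.41 to 0.31 on knockout arrays. Their differences ran from -1.84 for Fcgr1 to -0.37 for Csf1r. The part of these cells in the Spp1 result was not tested. In bulk samples, fewer cells of a type and less RNA per cell cannot be told apart.

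Among the thrombospondins, large calcium-binding glycoproteins, the readings of Thbs1 and Thbs2 were lower in the knockouts and those of Thbs4 higher. None was called. Thbs1 is released by platelets and made by injured stroma, and it can activate latent TGF-beta and restrain angiogenesis. At its tested probe (A_65_P13588) it read 1.18 and 1.37 in control replicates 2 and 3 and -0.39 at the unevenly shaped spot of control replicate 1. The knockouts read -2.49, -0.52 and -0.24, so all lay below the usable controls, but the marked control value fell inside their range. The difference was -2.36 (SE 0.69, 95% interval -4.07 to -0.66, limma adjusted p 0.102), and it was -1.81 with the marked spot kept (adjusted p 0.160). Without knockout replicate 1, the dimmest, it was -1.66 (adjusted p 0.0567).

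A brighter Thbs1 probe (A_55_P2746459) had 1 usable value and could not be tested. With its marked spots kept it read 2.29, 2.68 and 2.91 in controls. The knockouts read 0.33, 1.83 and 1.99, all below the controls. That difference was -1.24 (SE 0.45, limma adjusted p 0.137). Platelet and endothelial markers also read lower. Of 4 tested platelet markers all were lower, and 1 was called, where 2.47% of all tested genes were called lower. It was Ppbp, a platelet chemokine that was at least 6.99-fold lower (limma adjusted p 0.0170). The fold is a bound, as none of the knockout arrays had Ppbp well above background. Averaged over all 6 platelet markers listed the level was -2.22 to -1.59 in controls and -3.51 to -3.20 in knockouts. All 7 tested endothelial markers were lower, none of them called, with array averages over all 8 listed of 0.06 to 0.28 in controls and -1.77 to -0.48 in knockouts. Their part in the Thbs1 readings was not tested.

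Thbs2, a relative of Thbs1 made by fibroblasts and known for limiting vessel growth, was -0.92, -1.23 and -1.13 in controls, against -1.99, -1.33 and -1.31 in knockouts. The groups do not overlap, by a narrow margin, when the marked spots of control replicate 1 and knockout replicate 2 are kept. With those 2 values missing the difference was -0.47 (SE 0.30, 95% interval -1.25 to 0.31, limma adjusted p 0.376).

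Thbs4 is a pentameric thrombospondin of tendon, muscle and wound stroma. It read 1.78, 0.46 and 1.47 in controls and 3.10, 2.44 and 2.53 in knockouts. Every knockout value exceeded every control value, the opposite order to Spp1. However, 2 of the 3 knockout spots carried the mark for unevenness, which left 1 usable value and no test under the rule used here. With marked spots kept the difference was 1.45 (SE 0.37, 95% interval 0.57 to 2.33), a 2.73-fold higher signal that was not called (limma adjusted p 0.0696). With normexp background correction and quantile normalization of the median pixel signal, a choice made after seeing the data, it was 1.35 (adjusted p 0.0583). The exact permutation test of these 3 against 3 values gave p = 0.1, which is the smallest it can give.

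Most muscle markers also read higher in the knockouts. All 6 tested smooth muscle markers were higher, by 0.34 to 0.67, and none was called. Array averages over all 8 listed were 2.19 to 2.48 in controls and 2.73 to 2.85 in knockouts, which do not overlap. These values are scaled by the 75th percentile, which was lower on each knockout array (4911 to 5820) than on any control array (6353 to 7110). A lower percentile raises the scaled level, and its share in these small differences was not tested. Of 6 skeletal muscle markers 5 were higher and 1 was called, where 1.35% of all tested genes were called higher. It was the myosin heavy chain gene Myh1 (2.07, limma adjusted p 0.0160). The averages over the 6 were -2.97 to -2.70 in controls and -2.26 to -1.84 in knockouts. The part of muscle tissue in the Thbs4 readings was not tested.

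**Figure D2:**
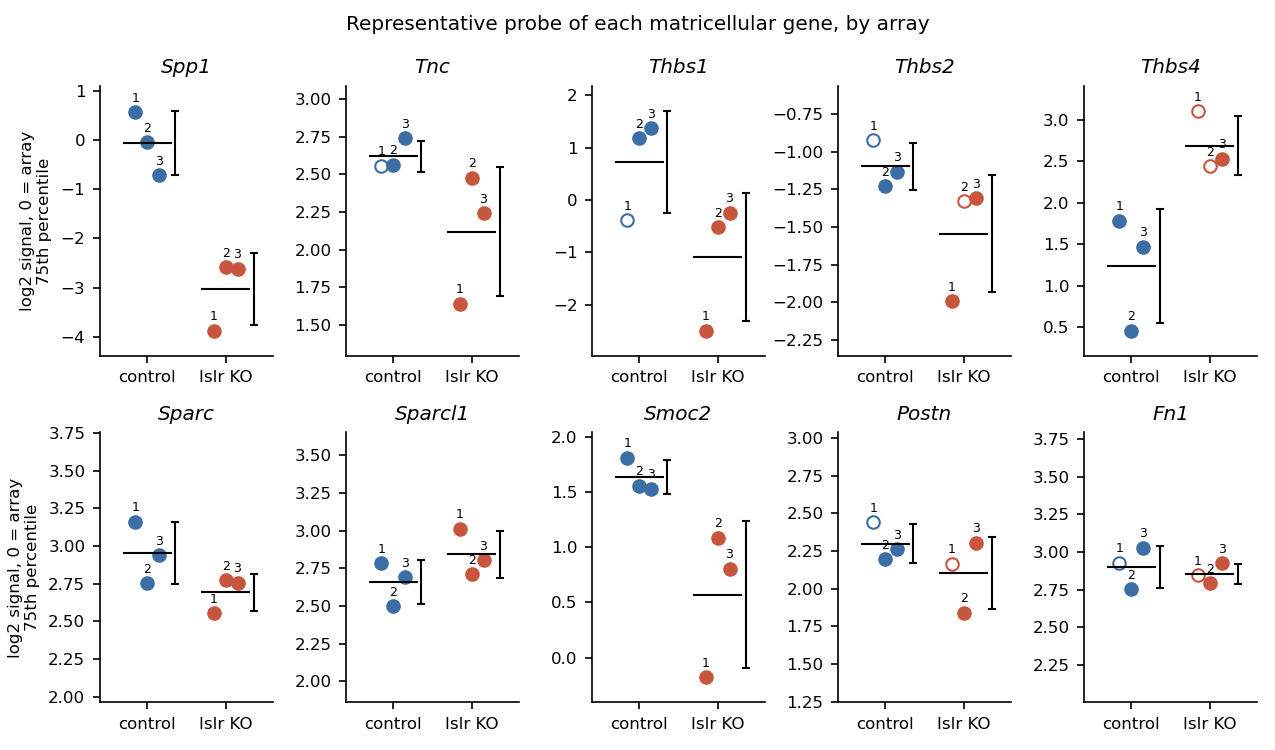
Level of each of the 10 genes at its representative probe (y axis, log2 signal with 0 at the array's 75th percentile) in 3 control (blue) and 3 Islr knockout (red) arrays, numbered by replicate. Open circles are spots marked as outliers by the scanner software; the horizontal bar is the mean and the whisker the SD over all 3 arrays, marked spots included. Spp1, Tnc, Thbs2 and Smoc2 have all knockouts below all controls, and Thbs4 has all of them above.

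Tenascin-C, periostin and fibronectin are large glycoproteins of the provisional wound matrix, and none of the 3 genes was called. Tnc, an anti-adhesive protein that appears around healing and inflamed tissue, read 2.56, 2.56 and 2.74 in controls and 1.64, 2.48 and 2.24 in knockouts at its bright probe (A_51_P291438). Knockout replicate 1 stood well below the rest. Knockout replicate 2 was close to the controls, and knockout replicate 3 lay between these and replicate 1. With the marked spot of control replicate 1 missing, the difference was -0.53 (SE 0.29, limma adjusted p 0.295), and -0.29 without knockout replicate 1. A much dimmer Tnc probe (A_52_P355169) read -3.82, -2.58 and -2.45 in controls and -7.51, -3.93 and -4.52 in knockouts. There the difference was -2.37 (SE 0.93, 95% interval -4.59 to -0.14, limma adjusted p 0.165). Its size is uncertain, because only 2 of 3 knockout arrays had this probe well above background.

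Postn encodes periostin, which is induced by TGF-beta and assists collagen cross-linking. At its brightest probe (A_51_P489192) it read 2.44, 2.20 and 2.26 in controls and 2.17, 1.84 and 2.30 in knockouts, with groups that overlap. The difference was -0.16 (SE 0.25, 95% interval -0.80 to 0.49, limma adjusted p 0.726), with 2 usable values per group. Another tested probe gave -0.16, and the untested one -0.34 with marked spots kept.

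Fn1, the fibronectin gene, read 2.93, 2.75 and 3.03 in controls and 2.85, 2.79 and 2.93 in knockouts at its brightest probe (A_55_P2130178). This was the smallest difference of the set, -0.03 (SE 0.22, 95% interval -0.60 to 0.54, limma adjusted p 0.942). It rests on 2 usable values per group, as replicate 1 of each was marked, and its sign changed with the processing. A dim probe assigned to another Fn1 transcript (A_55_P2743309) read -3.30, -2.60 and -2.98 in controls and -4.02, -3.33 and -3.33 in knockouts. Here the groups do not overlap, although the difference of -0.60 was not called (SE 0.27, limma adjusted p 0.215). The remaining probe gave -0.33 with marked spots kept and was not tested.

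The SPARC family shares a calcium-binding module and includes Sparc, Sparcl1 and Smoc2. Sparc, which binds collagen and aids its assembly into fibres, read 3.16, 2.75 and 2.94 in controls and 2.55, 2.77 and 2.76 in knockouts at its brighter probe. The groups touch, and the difference was -0.26 (SE 0.17, 95% interval -0.66 to 0.15, limma adjusted p 0.371). At the other Sparc probe (A_52_P101852) all knockouts, at 1.27, 1.84 and 1.81, lay below the controls, at 2.56, 2.19 and 2.29. That difference was -0.52 (SE 0.19, 95% interval -0.99 to -0.05, limma adjusted p 0.157), and -0.70 with the marked spot of knockout replicate 1 kept.

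Sparcl1, also called hevin, is made by smooth muscle, endothelium and glia, and it was the tested gene whose readings were not lower. It read 2.78, 2.50 and 2.69 in controls, against 3.01, 2.71 and 2.80 in knockouts. The groups overlap, and the difference was 0.20 (SE 0.16, 95% interval -0.19 to 0.58, limma adjusted p 0.473). This probe was printed in 10 spots, which gives a measure of the error between spots of an array that the other probes lack. It does not cover technical error between arrays. Over those spots the signal varied within an array by 2.19% to 3.20% (coefficient of variation), an SD of 0.03 to 0.05 on the log2 scale. Between samples the SD of the scaled log2 level was 0.14 in controls and 0.15 in knockouts. That spread includes what the scaling itself adds. Before scaling, its intensity was 40167 to 43716 units in controls and 38083 to 40315 in knockouts. There the order of the groups is reversed. The 75th percentile by which signals were scaled was lower on each knockout array (4911 to 5820) than on any control array (6353 to 7110). Under the other scalings the difference was 0.05 to 0.22.

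Smoc2 encodes a matricellular protein that binds growth factors and is made by stromal cells as well as by epithelial stem cells at the base of the crypt. It read 1.81, 1.55 and 1.53 in controls and -0.17, 1.08 and 0.80 in knockouts. All knockouts lay below all controls, with knockout replicate 1 the lowest by a wide gap. The difference was -1.06, a 2.08-fold lower signal (SE 0.33, 95% interval -1.85 to -0.27, limma adjusted p 0.105), and -0.69 without that replicate (adjusted p 0.123). The other probe went from a mean of 0.94 to one of -0.05 (SE of the difference 0.36, limma adjusted p 0.139).

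**Figure D3:**
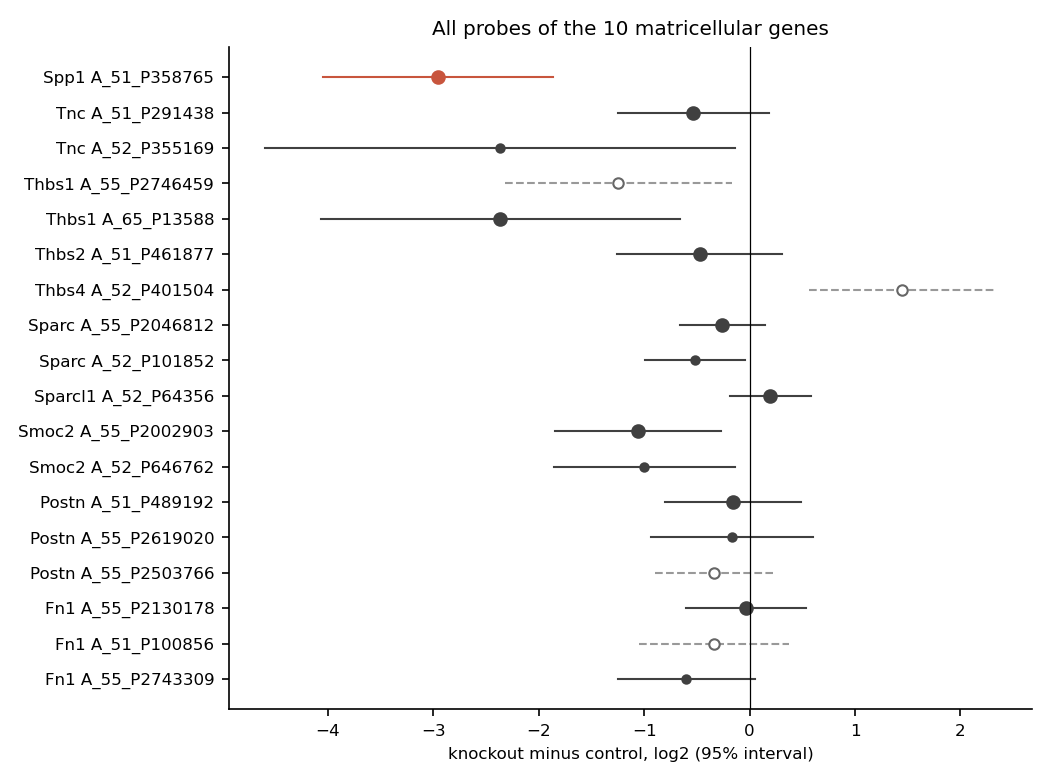
Difference between knockout and control (x axis, log2) with its 95% interval for each of the 18 probes. Filled points were tested, larger ones being the representative probe of the gene, and red marks the called probe; open points with dashed intervals were not tested and are shown with marked spots kept. Spp1 alone is red, at -2.96, and Thbs4 lies farthest right, at 1.45.

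Of the 18 probes 14 were tested, 13 were lower in the knockouts and 1 was called, against 3.97% of all 35351 tested probes in either direction and 2.42% as lower. With marked spots kept, Spp1 was still the only called gene of the 10, where 2.89% of all probes were called lower and 1.96% higher. In those values all knockouts lay below all controls at 9 of 18 probes, against 17.6% of all probes. At the representative probes this held for 4 of 10 genes, against 19.2% of all genes. Thbs4 was the one gene with the reverse order, which 17.3% of all probes showed. The arrays did not contribute evenly. Knockout replicate 1 was the lowest of the knockouts for 6 of 10 genes, as it was for 40.8% of all genes, and control replicate 1 was the highest control for 7 of 10, as for 38.1% of all genes. The median of the 10 genes relative to the control mean was -0.65 in knockout replicate 1, and -0.21 in both knockout replicate 2 and knockout replicate 3.

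Fibroblasts make most of these proteins in healing gut. All 8 fibroblast markers tested were lower in the knockouts and none was called, with differences from -1.84 for Col6a2 to -0.08 for Col1a2 and a median of -0.67. Averaged over the 8, the level was 1.22 to 1.55 in controls and 0.27 to 0.92 in knockouts, and it did not overlap. Lum, a collagen-associated proteoglycan, differed by -0.83, and Dcn, decorin, by -0.25. Epithelial markers read the other way: all 6 tested were higher, by 0.56 to 1.86, and none was called. Their averages over all 8 listed were 2.65, 0.91 and 2.27 in control replicates 1 to 3, with replicate 2 far below the others. In knockout replicates 1 to 3 they were 3.31, 2.90 and 2.97. Of 8 neutrophil markers 6 were called lower and 1, Ltf, was called higher, against 2.47% and 1.35% of all tested genes. The remaining one, Csf3r, differed by 0.17 (limma adjusted p 0.483). Of 6 enteric glia markers 5 were lower and 1, Erbb3, was called higher, where 1.35% of all tested genes were. The glia averages were -1.80 to -1.68 in controls and -2.17 to -1.74 in knockouts, which overlap. Of 6 adipocyte markers 4 were tested and none was called. Their averages over all 6 set single arrays apart, at 0.51 in control replicate 1 against -2.68 and -2.55 in replicates 2 and 3. The knockouts averaged -3.05, -0.93 and -1.16, replicate 1 being the lowest. The part of any of these cell types in the levels of the 10 genes was not tested.

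Relatives of the 10 genes, from the same families or with matricellular functions, were also mostly lower. Of 22 genes 19 were tested, 18 were lower, against 48.8% of all tested genes, with a median of -0.65. This list, like those of receptors and regulators below, was chosen with earlier results of these data known, so its shares only describe it. Of the 19, 3 were called lower, against 2.47% of all tested genes, and 0 were called higher, against 1.35%. The called ones were Smoc1, the closest relative of Smoc2, and the elastic fibre glycoproteins Fbln2 and Fbln5. Smoc1 averaged 0.29 ± 0.01 in the controls and -2.50 ± 0.59 in the knockouts (SD, 3 samples), so it fell by 2.79 (SE 0.30, limma adjusted p 0.0184). Its call was lost on dropping control replicate 2 (0.0572), control replicate 3 (0.0568) or knockout replicate 3 (0.0565). Fbln2 fell by 1.16 (SE 0.22, limma adjusted p 0.0453) and Fbln5 by 1.01 (SE 0.20, limma adjusted p 0.0468), and both calls were lost whichever array was left out and with no filter on dim probes (0.0685 and 0.0702). Not called were the CCN family member Ccn3 (-0.83, adjusted p 0.0653), Fbln1 (-0.54, 0.0909), the follistatin-like SPARC relative Fstl1 (-0.65, 0.115) and Ccn5. No knockout array had Ccn5 well above background, and it was at least 1.83-fold lower there (adjusted p 0.0876).

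Receptors for these proteins gave 1 call among 14 tested of 18, where 3.82% of all tested genes were called, so a single call is near the background. Lrp1, an endocytic receptor that takes up thrombospondins, fell by 1.28 (SE 0.16, limma adjusted p 0.0245), from 2.10 ± 0.19 to 0.82 ± 0.02 (SD, 3 samples). Dropping control replicate 1 or knockout replicate 2 kept the call, and dropping any other array lost it (adjusted p 0.0524 to 0.0774). Of the 14, 12 were lower, against 48.8% of all tested genes, with a median of -0.54. Cd44, which binds osteopontin and hyaluronan, differed by -1.45 at its brighter probe (SE 0.31, limma adjusted p 0.0633). A dimmer Cd44 probe, given because it was called, fell by 1.48 (limma adjusted p 0.0369). That call held on dropping control replicate 1 or knockout replicate 2 and no other array. It was lost with no filter on dim probes (0.0562). Among integrin subunits, Itgb3 differed by -0.68 (adjusted p 0.0562) and Itgb1, the shared beta chain of most matrix receptors, by -0.05 (adjusted p 0.855). The epithelial subunit Itgb6 differed by 2.21 in the other direction (SE 0.68, limma adjusted p 0.114). It is part of an integrin that binds fibronectin, tenascin-C and latent TGF-beta. Control replicate 2 read -1.94 for Itgb6, against 0.16 and 0.20 in control replicates 1 and 3. With the marked spot of knockout replicate 1 kept, its difference was 1.85. Egfr differed by -0.62 (adjusted p 0.119).

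Inducers and transcription regulators of stromal matrix genes gave 1 call among 16 tested of 18, again near the 3.82% of all tested genes. Of the 16, 12 were lower, against 48.8% of all tested genes, with a median of -0.41. Tgfb1, the growth factor best known for inducing periostin, fibronectin and tenascin-C, fell by 1.49 (SE 0.29, limma adjusted p 0.0468). The controls averaged -1.62 ± 0.30 and the knockouts -3.11 ± 0.49 (SD, 3 samples), and the call was lost on dropping any array but knockout replicate 2 and with no filter on dim probes (0.0714). Its receptor gene Tgfbr1 differed by -0.85 (adjusted p 0.0579), and the signal transducers Smad2 and Smad3 by -0.02 and -0.00. Smad4 differed by 0.34 at its brighter probe (limma adjusted p 0.277). A dimmer Smad4 probe, given because it was called, rose by 0.82 (SE 0.16, limma adjusted p 0.0446). That call was lost on dropping any array but control replicate 1, with median centring (0.0506) and with no filter on dim probes (0.0661). Twist1, a mesenchymal transcription factor, differed by -1.11 (adjusted p 0.0679), and Tead1, the partner of YAP, by -0.46 (adjusted p 0.105). Prrx1, a homeobox factor of fibroblasts, differed by -0.68 at its representative probe (limma adjusted p 0.115). A second probe, again given because it was called, was at least 2.19-fold lower (limma adjusted p 0.0470). That call was lost on dropping any array but knockout replicate 2 and with no filter on dim probes (0.0740). With normexp and quantile normalization the measured difference of this second probe shrank from -2.44 to -0.92, less than the stated bound, and it was not called (0.0517).

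**Figure D4:**
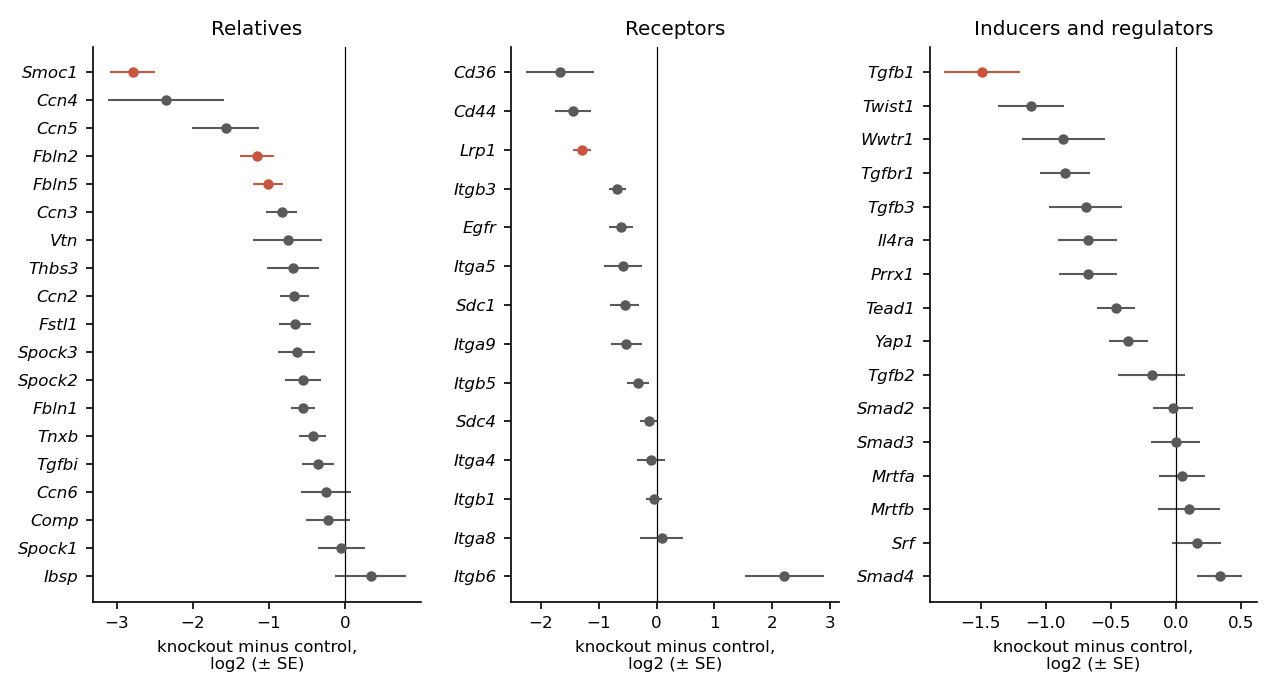
Differences between knockout and control (x axis, log2, with the SE) for the tested relatives (19 genes), receptors (14) and inducers and regulators (16), each at its representative probe; called genes are red. Points lie left of 0 for 18, 12 and 12 genes, and the called ones are Smoc1, Fbln2, Fbln5, Lrp1 and Tgfb1.

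**Figure D5:**
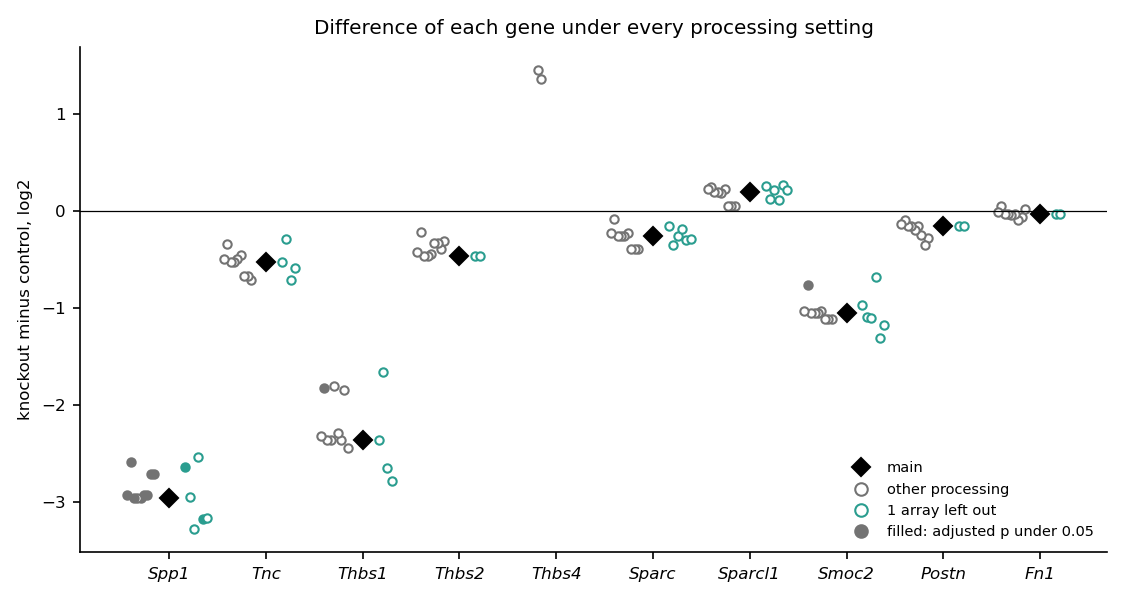
Difference of each of the 10 genes (y axis, log2) as reported (black diamonds), under other processing (grey) and with 1 array left out (green); filled circles have an adjusted p under 0.05. Spp1 stays between -3.28 and -2.53, Thbs1 and Smoc2 are called with array weights only, and Thbs4 has values only where marked spots were kept.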

How the data were processed

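Per the file headers, Agilent Feature Extraction 11.5.1.1 quantified the arrays (design 074809, mm9); the submitters' processing notes name version 10.7, and the labels name Cy3 and a green column, whereas the files hold red columns only. The deposited processed signal is an intensity, detrended and background-subtracted by the scanner software, per the file headers, and not scaled between arrays. The marks for spots well above background, saturated or outlying, unit other, are 0 or 1 values deposited in the same files. No spot was saturated.

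Here log2 of the deposited intensity was taken, less log2 of the 75th percentile of each array (4911 to 7110 units); outlier spots (3.26% to 16.0% per array) were set missing and spots of a probe averaged. A probe was tested if well above background on all 3 arrays of a group with at least 2 usable values in each, which left 35351 of 56605. Genotype was tested, two-sided, in limma 3.58.1 (lmFit, then eBayes; R 4.3.3), and the code was tested on simulated data. With 3 samples per group, their number limits precision, and an exact permutation test cannot go below 0.1. Probes were named by accession in GRCm38.p6 (33767 named). The tested probe with the highest mean stood for a gene. For list genes a further probe is given only where it was itself called, and their other probes are not shown. Named were all 10 genes, Islr, called list genes, up to 4 more per list with the lowest p, and the 5 genes most like the leading member. Markers and other genes are named as examples, chosen after their values were seen. Members and lists were chosen with earlier results of these data known.

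Alternatives were normexp (offset 50) with quantile normalization, quantile normalization, median centring, outlier spots kept, no dim-probe filter, a filter on all 6 arrays, array weights, the deposited series value table (intensities; log2 correlation with the scanner signal of at least 0.999999), other probes, and each array left out.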

Additional observations from a re-analysis of the deposited data

How the results depend on the processing

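Differences of the 10 genes kept their sign in every setting run except for Fn1, which was 0.014 with normexp and quantile normalization and 0.053 with array weights. Over all probes the number of calls was 2823 with normexp and quantile normalization, 3105 with the same and marked spots kept (added after seeing the data), 2185 with quantile normalization, 2249 with median centring, 484 with no filter on dim probes and 9292 with array weights, and 40 to 2114 with 1 array left out. Of the 10 genes, 0 were called with no filter on dim probes, where Spp1 had an adjusted p of 0.0515, and 3 with array weights (Thbs1, Smoc2 and Spp1), the median being -0.22 there. With 1 array left out, 0 to 1 were called, 3 to 8 were lower of 4 to 9 tested, and the median was -0.88 to -0.24. Relatives called numbered 1 with no filter and 7 with array weights, and 0 to 1 with an array left out. Receptors called numbered 3 with normexp and quantile normalization (5 with marked spots kept), 3 with quantile normalization, 2 with median centring, 3 with marked spots kept and 4 with array weights, and 0 to 1 with an array left out. Regulators called numbered 4, 4, 2, 3, 2 and 4 in the same order, 0 with no filter, and 0 to 1 with an array left out. The cause of these shifts was not tested. Replicate numbers only name the samples. No paired analysis was possible because the labels give no replicate numbers that pair them.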

Other observations

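Where a gene had several probes, the dimmest and the brightest often disagreed in size. With marked spots kept, 6 of the 10 genes had at least 2 probes, and the dimmest probe had the larger fall in 5 of them, Smoc2 being the exception. The gap was widest for Tnc, -2.37 at the dim probe against -0.50 at the bright one, and for Thbs1 and Fn1 it was -1.81 against -1.24 and -0.60 against -0.05. Across all 6311 named genes with at least 2 probes, the dimmer one showed the larger difference in size in 60.4%. Among the 2502 genes lower at both probes the share was 69.5%, and among the 280 of these whose brightest probe averaged 1.5 or more, it was 89.6%. Signal, transcript and probe position differ together between such probes, and their parts were not tested.

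The genes whose levels over the 6 arrays were most like those of Spp1, among 13679 genes usable on all arrays, were Proser1, Arxes2, Trim3, C1qtnf5 and Chst15, with Pearson r from 0.997 to 0.999 across 2 separated groups of 3. Of these Arxes2 (-1.48, limma adjusted p 0.0351) and Chst15 (-1.25, limma adjusted p 0.0346) were called, against 3.82% of all tested genes. They were picked for likeness to a called gene, so their calls add no separate evidence. Among the 10 genes, r with Spp1 was 0.93 for Smoc2, 0.82 for Sparc and -0.71 for Sparcl1, the only others usable on all arrays.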
